A study of Mus musculus with 6 samples.

Results

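Hspa1a, Hspa1b, Hspa8, Hsph1, Dnajb1, Hsp90aa1, Hspe1 and Hspb1 are 8 genes for heat shock proteins and their cochaperones, taken by name from the 27514 gene identifiers that the count tables of both preparations share, and all 8 were measured in all 6 libraries. They were chosen by their UMI levels in cell types of these libraries, including differences between technical replicates in some cell type, so their levels and their spread between replicates are described without a test. Brain tissue was dissociated by a brief incubation in dispase II, papain and DNase I, myelin debris was removed on Percoll, and the cells were run on the 10x Genomics Chromium platform, in which each captured RNA molecule is counted by a unique molecular identifier (UMI). All mice were C57Bl/6J females. Cells of the cerebral cortex of 3 mice, 3 weeks old, were pooled as prep 1, and cells of the hippocampus of 3 mice, 5 weeks old, as prep 3. Each pool was run as 3 technical replicates. The 3 libraries of a preparation therefore share the same mice and the same suspension, and their spread measures library making and cell sampling but not differences between animals. Region, age and preparation changed together and cannot be told apart. All 6 libraries came from dissociated tissue, and no undissociated sample was analysed here.

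Heat shock proteins are chaperones that hold or refold unfolded proteins. When unfolded proteins accumulate, the transcription factor HSF1 binds heat shock elements, which are inverted repeats of the bases GAA, and raises transcription of the inducible members. Hspa1a and Hspa1b encode the inducible HSP70 and Hspa8 the constitutive HSC70. Dnajb1 is an HSP40 cochaperone that stimulates the HSP70 ATPase, Hsph1 is an HSP110 that exchanges its nucleotide, and Hsp90aa1 is the inducible cytosolic HSP90. Hspe1 is the mitochondrial HSP10 that caps HSP60, and Hspb1 is a small heat shock protein that is abundant in vascular and muscle cells. In the brain, RNA of the inducible members is known to rise when tissue is dissociated with enzymes.

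The libraries of prep 1 held 5834 to 6121 barcodes and 39662203 to 42097490 UMIs, and those of prep 3 held 4894 to 5232 barcodes and 43963706 to 50024850 UMIs. The filters kept 13318 of 17937 barcodes in prep 1 and 14209 of 15336 in prep 3, with a median of 5800 to 5910 and of 6632 to 6914 UMIs per cell in a library. Clusters were named from marker genes as "like" classes, which gave 9 named classes and 4 unnamed clusters of at least 50 cells in prep 1 and 13 named classes and 3 unnamed clusters in prep 3. Every marker of every named class was detected in it. Compared with the other named classes, and not with unnamed clusters, all of them were highest in their own class in prep 1. In prep 3 this held for 7 of 9 markers of oligodendrocyte precursor (OPC)-like cells, 7 of 10 of astrocyte-like cells, 6 of 7 of monocyte-like cells and 8 of 9 of oligodendrocyte-like cells, and for all markers of the other classes. Within a preparation, 39 barcodes of prep 1 and 339 of prep 3 occurred in more than 1 library, and leaving them out moved no main value below beyond the spread between replicates. At most 0.455% of microglia-like, endothelial-like or astrocyte-like cells had such a barcode, so values of these classes could hardly move. In prep 3 the share was 67.5% of epithelial-like, 41% of monocyte-like and 21.3% of ependymal-like cells. Levels of the last 2 classes were not recomputed without them. Levels are in CPM, the UMIs of a gene out of 1000000 UMIs of the same cells, summed over the cells of a class in a library and listed in the order of technical replicates 1, 2 and 3. Levels are compared between classes for the same gene, not between genes. Intervals are exact 95% intervals and cover counting error only.

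Hspa1a and Hspa1b lie on the minus strand of chromosome 17 in the mm10 (GRCm38) build, at chr17:34969190-34972156 and chr17:34956436-34959238, and each consists of 1 exon. The gene Gm20481 overlaps the exon of Hspa1a on the opposite strand. How strand entered the authors' counting is not given in the sources used here. All 451 words of 50 bases in the last 500 bases of the Hspa1a transcript, and all of those of Hspa1b, occurred in no other gene, so the close copies could be counted apart near their ends. The same held for Hsph1 (chr5:149614287-149636376, minus strand, 18 exons), Dnajb1 (chr8:83608193-83612653, plus strand, 3 exons) and Hsp90aa1 (chr12:110690605-110702728, minus strand, 11 exons). Hspa8 (chr9:40800984-40810087, plus strand, 9 exons) had only 82 unique words and shared the rest with 11 other genes. Hspe1 (chr1:55088132-55091307, plus strand, 4 exons) had 211 and shared the rest with 6 genes, and Hspb1 (chr5:135887919-135889563, plus strand, 3 exons) had 205 and shared the rest with 1 gene. None of these sharing genes was in the count tables, so the absolute levels of Hspa8, Hspe1 and Hspb1 are uncertain.

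The promoters of Hspa1a and Hspa1b are shown because the pair had nearly the same level pattern over cell types but not the same ratio in both preparations, and the upstream stretches of Hspb1 and Hspe1 because they hold more than a single pair of heat shock units. Sequences are from RefSeq (GRCm38.p6), 5′ to 3′ on the strand of the gene, and capitals mark units of a heat shock element, meaning the letters GAANNTTC or TTCNNGAA, which read the same on both strands, and their overlaps. The lines give 250 bases before the start of Hspa1a at chr17:34972157-34972406 and of Hspa1b at chr17:34959239-34959488, both on the minus strand, then 90 bases of Hspb1 at chr5:135887769-135887858 and 30 bases of Hspe1 at chr1:55088053-55088082, both on the plus strand.
Hspa1a: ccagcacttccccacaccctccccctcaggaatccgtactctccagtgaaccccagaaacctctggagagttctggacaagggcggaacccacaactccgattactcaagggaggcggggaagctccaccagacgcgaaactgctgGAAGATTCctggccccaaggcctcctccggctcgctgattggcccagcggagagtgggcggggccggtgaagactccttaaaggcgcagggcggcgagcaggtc
Hspa1b: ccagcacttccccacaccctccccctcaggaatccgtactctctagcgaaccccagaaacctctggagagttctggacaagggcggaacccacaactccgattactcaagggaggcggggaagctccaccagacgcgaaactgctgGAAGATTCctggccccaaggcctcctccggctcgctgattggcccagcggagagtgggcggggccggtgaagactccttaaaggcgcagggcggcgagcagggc
Hspb1: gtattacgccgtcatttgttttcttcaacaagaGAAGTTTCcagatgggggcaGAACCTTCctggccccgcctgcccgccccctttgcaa
Hspe1: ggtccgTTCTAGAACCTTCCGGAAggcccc
The 250 bases before Hspa1a and Hspa1b differed at 3 positions and were 98.8% identical, and the pair of units began 104 bases before the start in both. Hspb1 held pairs that began 117 and 97 bases before its start, and Hspe1 held 3 overlapping pairs from 89 to 79 bases before its start. An exon of Hspd1, the HSP60 gene, overlaps an exon of Hspe1 on the opposite strand. A promoter was listed for 6 of the 8 members, all but Hspa8 and Hsp90aa1. A pair of units was found in the 250 bases before a start of 5 of those 6, and in 3932 of 27025 genes in all (14.5%). The longer run of 3 units, GAANNTTCNNGAA or TTCNNGAANNTTC, was found in Hspe1 among the members and in 0.514% of all genes. Hsph1 held a pair 33 or 54 bases before its listed starts, and in Dnajb1 these letters were not in the window.

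RNA of the inducible HSP70 gene Hspa1a was high in macrophage-like and microglia-like cells and low in astrocyte-like cells of both preparations, while endothelial-like cells ranked 8 of 13 classes and clusters in prep 1 and 4 of 16 in prep 3. In prep 1 its level was 365, 509 and 272 CPM in monocyte-like cells and 262, 464 and 370.1 CPM in macrophage-like cells, although these classes held only 83 and 86 cells. In microglia-like cells, the most numerous class with 6150 cells, it was 211, 225 and 246 CPM (227 ± 17.6, SD, n = 3). In endothelial-like cells it was 76.98, 54.7 and 92.9 CPM (74.8 ± 19.2), and in astrocyte-like cells 8.37, 9.07 and 13.5 CPM (10.3 ± 2.77). The microglia-like libraries were thus all above the endothelial-like libraries, and those were all above the astrocyte-like libraries. The endothelial-like range overlapped those of erythroid-like (70.6 ± 6.57 CPM), neuron-like (70.1 ± 58.0 CPM) and fibroblast-like cells (57.1 ± 32.0 CPM). An unnamed cluster of 375 cells led by the smooth muscle genes Acta2 and Tagln had 348, 351 and 347 CPM. Between neighbouring classes in the order of levels, the ranges over the 3 libraries overlapped in 8 of 12 pairs, so most steps of the order were not larger than the spread between technical replicates.

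In prep 3 Hspa1a was 339, 420.1 and 374 CPM in macrophage-like cells, 404, 267 and 385 CPM in pericyte-like cells and 274, 229.7 and 229.9 CPM in endothelial-like cells. Microglia-like cells had 163, 158 and 149 CPM, which was below all endothelial-like libraries, so the order of these classes was the opposite of that in prep 1. Monocyte-like cells ranged from 21.7 to 229 CPM between libraries. The cells of neural origin were low, with 46.7, 64.0 and 29.98 CPM in oligodendrocyte-like cells, 29.2, 27.0 and 38.2 CPM in OPC-like cells and 5.13, 17.7 and 10.8 CPM in neuron-like cells. Epithelial-like cells, whose markers are those of the choroid plexus, had 9.37, 9.89 and 9.54 CPM. Neighbours in the order overlapped in 14 of 15 pairs.

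Hspa1b followed Hspa1a in the large classes of prep 1 and less closely in prep 3. In prep 1 it was 211, 201 and 228 CPM in microglia-like cells, 50.9, 34.4 and 64.6 CPM in endothelial-like cells, which overlapped erythroid-like cells (63.8 ± 1.59 CPM), and 9.70, 11.4 and 9.47 CPM in astrocyte-like cells. In prep 3 it was 107, 102 and 92.0 CPM in microglia-like cells, 100.0, 87.4 and 87.3 CPM in endothelial-like cells and 155, 101 and 133 CPM in pericyte-like cells. The endothelial-like and microglia-like ranges overlapped in prep 3 for Hspa1b but not for Hspa1a. In astrocyte-like cells the level of Hspa1a was 4.53% of that in microglia-like cells in prep 1 and 9.56% in prep 3. The 10 microglial marker genes, which astrocytes should lack, reached a median of 2.47% (2.27 to 12.05%) and 4.08% (3.84 to 8.69%) of their microglia-like level in the same astrocyte-like cells. Some astrocyte-like cells held no UMI of a microglial, macrophage, endothelial or pericyte marker. In these the level of Hspa1a was 4.81 CPM in prep 1 and 3.78 CPM in prep 3, from 17 and 5 UMIs. Without called doublets, the microglia-like level exceeded the astrocyte-like level by 4.67 and 4.05 on the log2(CPM + 5) scale, beside 3.92 and 3.02 with all cells.

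Hspa8, the constitutive HSC70, was present in every class and varied less between classes. In prep 1 its mean was highest in monocyte-like cells, at 1867, 1625 and 2124 CPM, and lowest in erythroid-like cells, at 560.0, 602 and 497 CPM. Erythroid-like cells had a mean of 327829 CPM of the globin gene Hbb-bs alone. This lowers the CPM of every other gene there, Hspa1a and Hspa1b included, so their rank among classes is uncertain. Of these cells 20.2% were called doublets. Microglia-like cells had 1192, 1223 and 1321 CPM, endothelial-like cells 1345, 1444 and 1453 CPM and astrocyte-like cells 988, 1022 and 1129.9 CPM. The endothelial-like libraries were all above the microglia-like libraries, the reverse of Hspa1a in the same cells. In prep 3 neuron-like cells had the highest mean, at 1757, 1708 and 1629 CPM, and astrocyte-like cells lowest, at 613, 617 and 663 CPM.

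Of the HSP70 cochaperones, Dnajb1 shared with Hspa1a its high level in myeloid classes and its low level in astrocyte-like cells, while Hsph1 was low in microglia-like and macrophage-like cells of both preparations. Dnajb1 had its highest mean in microglia-like cells of prep 1, at 79.1, 79.6 and 84.2 CPM, although the ranges of macrophage-like and monocyte-like cells overlapped it. In prep 3 macrophage-like cells had the highest mean, at 84.0 ± 23.8 CPM. Endothelial-like cells had 50.6, 53.4 and 49.5 CPM of Dnajb1 in prep 1 and 48.3, 51.6 and 48.5 CPM in prep 3. Astrocyte-like cells had the lowest mean in both preparations, at 17.9, 15.96 and 21.7 CPM and at 9.63, 10.5 and 10.9 CPM. Hsph1, the HSP110, had another pattern. In prep 3 it was lowest in macrophage-like and microglia-like cells, with 14.6, 16.1 and 14.0 CPM in the latter, and highest in ependymal-like cells, at 344, 325 and 405 CPM. OPC-like cells followed at 131, 124 and 122 CPM and neuron-like cells at 90.6, 79.6 and 95.7 CPM, and none of these ranges overlapped.

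Hsp90aa1, the inducible cytosolic HSP90, was also high in oligodendrocyte-like and neuron-like cells of both preparations, and low in astrocyte-like cells. In prep 3 ependymal-like cells had 5420.3, 5702 and 5147 CPM, oligodendrocyte-like cells 1798, 1815 and 1756 CPM and neuron-like cells 1173, 1160.4 and 1205 CPM. None of these ranges overlapped. Microglia-like cells had 271, 262 and 261 CPM, endothelial-like cells 292, 250.01 and 261 CPM, and astrocyte-like cells were lowest at 201, 209 and 214 CPM. In prep 1 oligodendrocyte-like cells, at 1313, 1164 and 897 CPM, and neuron-like cells, at 1020.2, 766 and 1022 CPM, were again highest among named classes, with overlapping ranges. Monocyte-like cells, which had the highest mean of Hspa1a in prep 1, came next among named classes at 403 ± 81.9 CPM. Their range overlapped that of fibroblast-like cells. Hspe1, the mitochondrial HSP10, was highest in OPC-like cells of prep 3, at 541, 586 and 497 CPM, and in ependymal-like cells, at 524, 475 and 408 CPM. In prep 1 it was 308, 314 and 327 CPM in astrocyte-like cells, 249, 259.7 and 260.2 CPM in microglia-like cells and 144, 141 and 145 CPM in endothelial-like cells. Its order of means over these classes was the reverse of that of Hspb1 and, apart from microglia-like cells, of Hspa1a. The microglia-like and astrocyte-like ranges of Hspb1 overlapped, so that step of its order was not shown.

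Hspb1, the small heat shock protein, had its highest levels in vascular classes and clusters. In prep 1 it was 706, 735 and 771 CPM in endothelial-like cells, 1286, 1196 and 1226 CPM in the cluster led by Acta2 and Tagln, and 669.8, 680.4 and 653 CPM in an unnamed cluster led by the pericyte genes Abcc9 and Vtn. In prep 3 it was 1317, 1069 and 1381 CPM in vascular smooth muscle cell (VSMC)-like cells, 1189, 1152 and 1207 CPM in endothelial-like cells and 628, 654 and 669 CPM in pericyte-like cells. Microglia-like cells held 18.4, 27.9 and 26.2 CPM in prep 1 and 19.6, 16.9 and 24.6 CPM in prep 3. The mean in endothelial-like cells was higher than in microglia-like cells by 4.67 on the log2(CPM + 5) scale in prep 1 and by 5.55 in prep 3. In monocyte-like cells of prep 1 a UMI of Hspb1 was found in 0 of 83 cells, and the exact upper limit of that share was 4.35%, which limits cells with a UMI and not cells expressing the gene. The low level in microglia-like cells was 3.28% (prep 1) and 1.72% (prep 3) of the endothelial-like level. The 10 endothelial markers in the same cells had a median of 0.141% and 0.154%, and the highest had 5.04% and 5.41%. In microglia-like cells without UMIs of endothelial or pericyte markers, Hspb1 was 20.0, 27.2 and 28.4 CPM in prep 1. In prep 3 it was 19.5, 17.7 and 26.0 CPM in such cells. The source of this RNA was not tested.

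**Figure D1:**
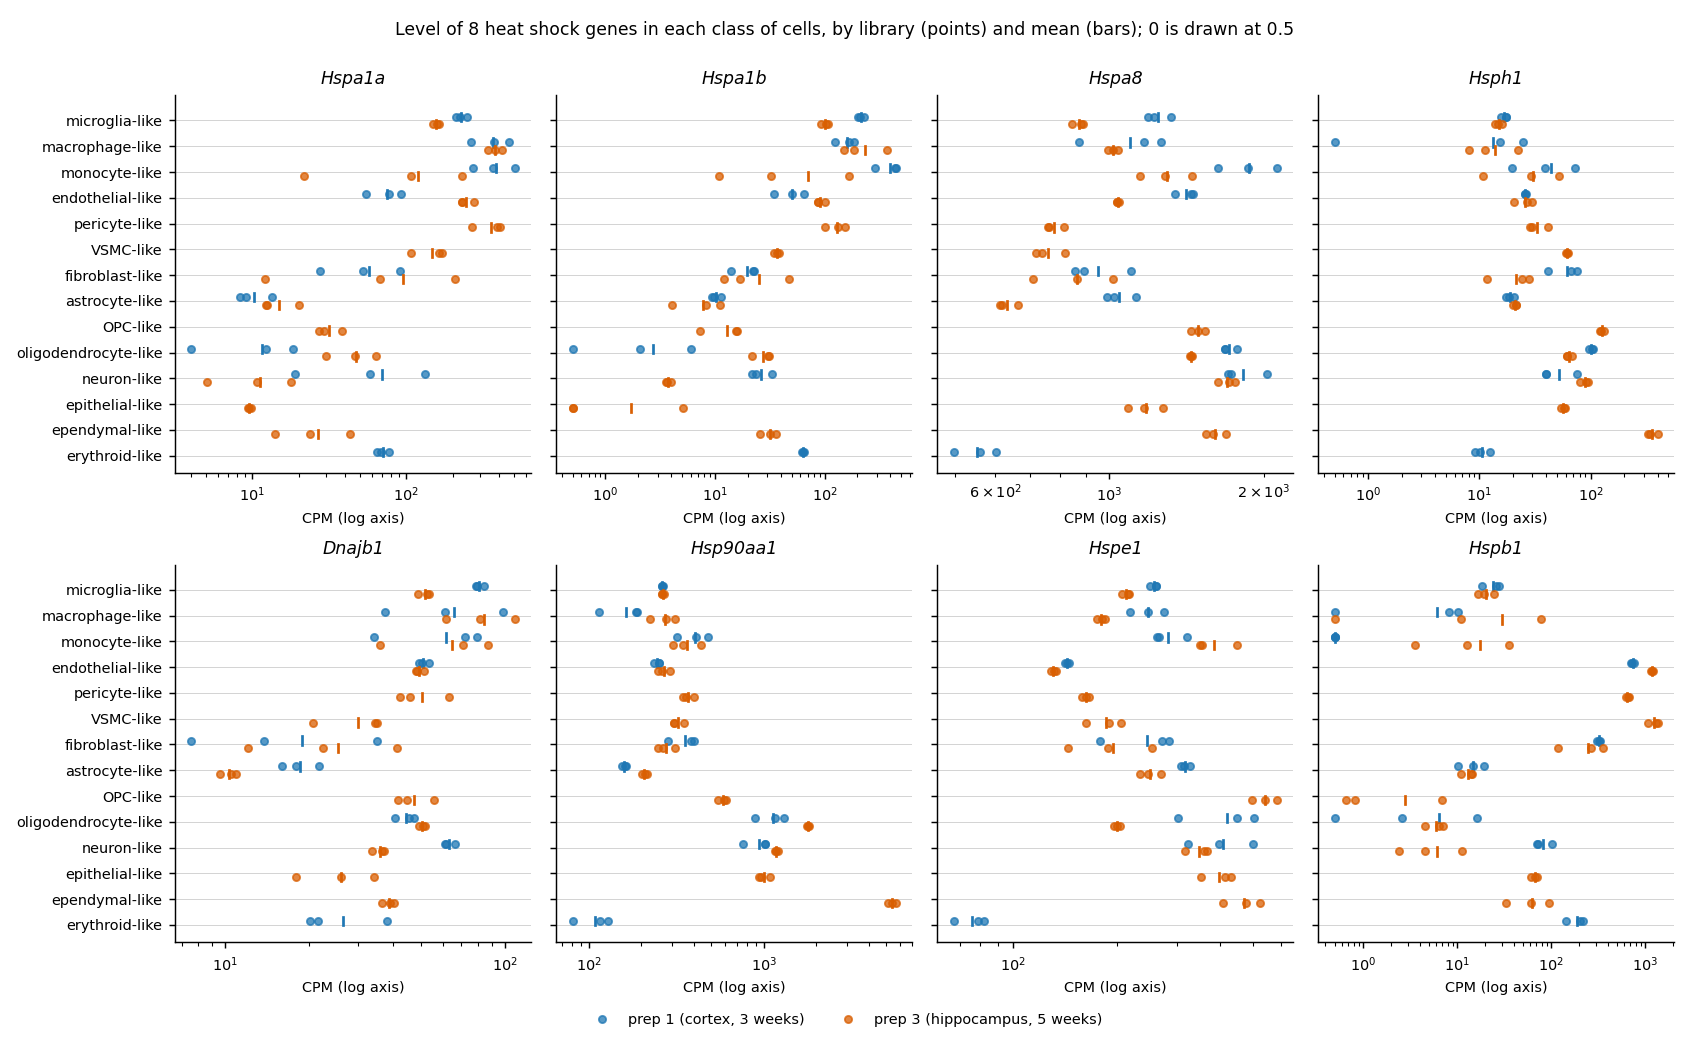
Level of each of the 8 genes by cell class, in CPM on a log axis, for prep 1 and prep 3. Points are libraries (technical replicates), bars their means, and a library at 0 is drawn at 0.5 CPM. Hspa1a and Hspa1b are high in microglia-like and macrophage-like cells and low in astrocyte-like cells, Hspb1 is high in vascular classes, and Hsp90aa1 and Hsph1 are highest in ependymal-like cells of prep 3.

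Technical replicates of the same suspension gave nearly the same level for most members that had enough UMIs to compare. Uneven levels between replicates were examined as the ratio of the highest to the lowest library, with 5 CPM added to both, for classes with at least 100 cells in each library and for members with at least 300 UMIs in the class. The ratio reached 1.5 in 2 of 21 combinations of member and class in prep 1 and in 2 of 38 in prep 3. Among all genes with at least 300 UMIs, it was reached in prep 1 by 1.45% in astrocyte-like, 1.21% in endothelial-like and 1.03% in microglia-like cells. In prep 3 it was reached by 0.426% in astrocyte-like, 0.795% in endothelial-like, 11.8% in epithelial-like, 0.148% in microglia-like, 1.98% in neuron-like, 0.828% in oligodendrocyte-like and 2.35% in pericyte-like cells. Because members were chosen partly for this spread, nothing is read from the counts. The 2 combinations of prep 1 were Hspa1a and Hspa1b in endothelial-like cells, and those of prep 3 were Hspa1a in oligodendrocyte-like and in pericyte-like cells. No combination of microglia-like or astrocyte-like cells was among them, though only 5 members in prep 1 and 3 in prep 3 had 300 UMIs in astrocyte-like cells. Below 300 UMIs the ratio of Hspa1b was 1.79 in astrocyte-like, 2.02 in epithelial-like and 1.50 in pericyte-like cells of prep 3. It was 2.25 for Hspa1a and 2.22 for Hspb1 in neuron-like cells and 1.70 for Dnajb1 in epithelial-like cells of prep 3, and 1.60 for Hspb1 in astrocyte-like cells of prep 1. These rest on 6 to 257 UMIs. Of the 257 UMIs of Hspb1 in astrocyte-like cells of prep 1, 192 lay in a cluster of 36 cells.

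In endothelial-like cells of prep 1, Hspa1a was lowest in replicate 2 (54.7 CPM) and highest in replicate 3 (92.9 CPM), a ratio of 1.64. The plain ratio of those libraries was 1.70 (1.49 to 1.93). These libraries were picked as the highest and lowest, and the interval covers neither that choice nor the sampling of cells. Hspa1b moved in the same order, from 34.4 to 64.6 CPM, with a ratio of 1.76 and a plain ratio of 1.87 (1.60 to 2.20). The other 6 members did not reach a ratio of 1.5 in these cells. With each cell thinned to 1000 UMIs the ratio of Hspa1a was 1.30 and that of Hspa1b 1.58, so only Hspa1b stayed past 1.5. With cells classed by their own markers the ratios were 1.29 and 1.26, without replicate 2 they were 1.19 and 1.25, and without replicate 3 they were 1.37 and 1.42. The summed level of the 10 microglial markers in the same endothelial-like cells was 440, 206 and 504 CPM and thus also lowest in replicate 2, and 9 of the 10 markers were highest in replicate 3. The 905 of 2446 cells without UMIs of microglial or macrophage markers were also taken alone, a choice made after the values were seen. Cells with pericyte markers stayed in. In the kept cells Hspa1a was 62.1, 62.8 and 88.9 CPM (ratio 1.40) and the ratio of Hspa1b was 1.48. Replicate 3 remained highest for both.

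In oligodendrocyte-like cells of prep 3, Hspa1a was highest in replicate 2 (64.0 CPM) and lowest in replicate 3 (29.98 CPM), with a ratio of 1.97 and a plain ratio of 2.13 (1.82 to 2.51). Hspa1b was 30.8, 30.5 and 21.6 CPM there and had a ratio of 1.35. In these cells the microglial markers summed to 506, 237 and 400.2 CPM and the endothelial markers to 147, 56.8 and 102 CPM, both lowest in replicate 2, where Hspa1a was highest. The 9 macrophage markers summed to 6.97, 12.1 and 2.24 CPM, and 8 of them were highest in replicate 2. Only 80 of 1075 cells had no UMI of a microglial, macrophage, endothelial or pericyte marker. They held 34 UMIs of Hspa1a in all, and in them the level was 16.2, 41.1 and 15.4 CPM. With all 1075 cells the ratio of Hspa1a was 1.97 without replicate 1, 1.48 without replicate 2 and 1.33 without replicate 3. It was 1.92 with each cell thinned to 1000 UMIs and 1.73 with cells classed by their own markers. In pericyte-like cells of prep 3, Hspa1a was lowest in replicate 2 (267 CPM) and highest in replicate 1 (404 CPM), with a ratio of 1.50, on the threshold, and a plain ratio of 1.51 (1.24 to 1.84). Without replicate 2 the ratio was 1.05, without replicate 1 it was 1.43 and without replicate 3 it was 1.50. It was 1.31 with thinned cells and 1.60 with cells classed by their own markers. Microglial markers in the pericyte-like cells were highest in replicate 2, at 1738, 2046 and 1311 CPM. Without cells that held microglial or macrophage markers, 202 of 449 cells were left. In them Hspa1a was 278, 293 and 273 CPM, with a ratio of 1.07. Cells with endothelial markers stayed in.

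In microglia-like cells all members stayed below the threshold in both preparations. The ratio of Hspa1a was 1.16 in prep 1 and 1.09 in prep 3. The plain ratio in prep 1 was 1.17 (1.10 to 1.23), again for libraries picked as highest and lowest. Hspb1, at a low level in these cells, had the highest ratios among the members, 1.40 in prep 1 and 1.35 in prep 3. They were above those of 98.4% and 99.7% of all genes tested. Its plain ratios were 1.51 (1.27 to 1.81) and 1.45 (1.22 to 1.72). The genes of highest ratio in the same microglia-like cells differed more between replicates. In prep 1 the 10 genes of highest ratio included Ttr, Hist1h2ap, Hbb-bt, Gm10076, Hba-a2, Hba-a1, Ccl5, Hbb-bs and Hist2h2aa1. Ttr, a choroid plexus RNA, was 441, 2.09 and 0.174 CPM. In prep 3 they included Hbb-bs, Hba-a1, Hba-a2, Cxcl10, Gm10076, Gm10073, Gm26870, Enpp2 and Nme2, of which the first 3 are globin genes, and no member was among the 10 in either preparation.

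**Figure D2:**
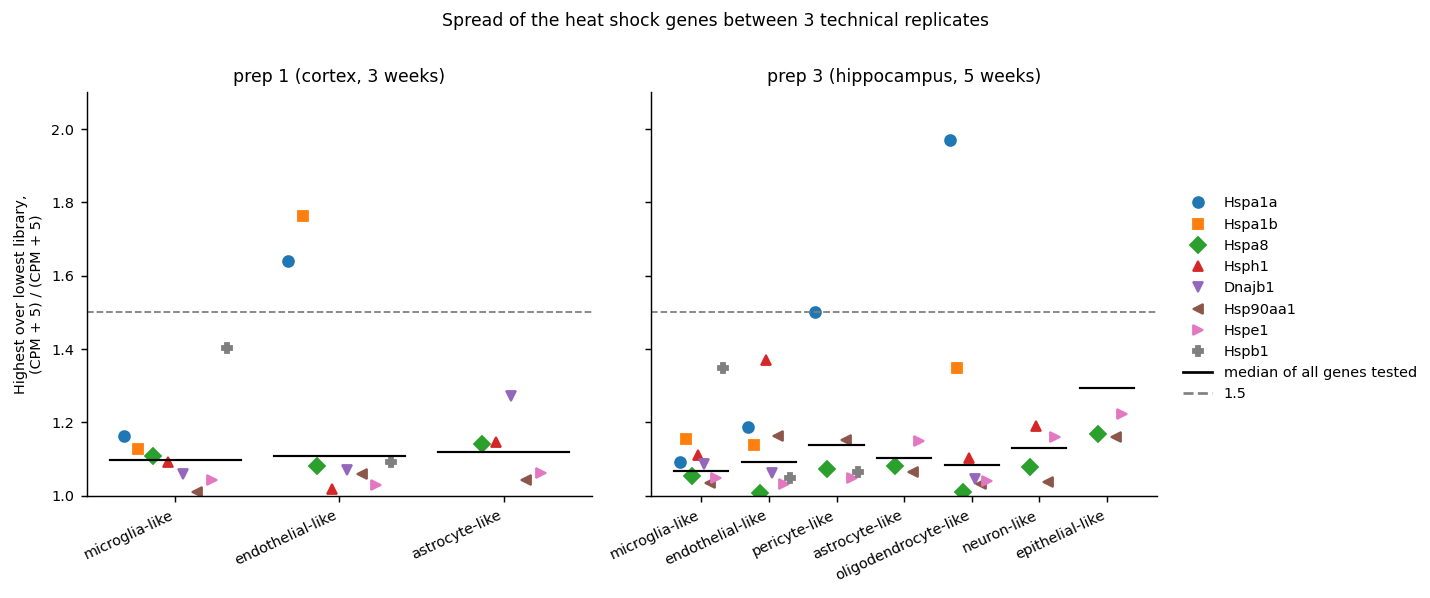
Ratio of the highest to the lowest library, with 5 CPM added, for each member with at least 300 UMIs in a class with at least 100 cells per library. The dashed line is the ratio of 1.5 and the black line the median of all genes of the class. Hspa1a and Hspa1b in endothelial-like cells of prep 1 and Hspa1a in oligodendrocyte-like and pericyte-like cells of prep 3 reach the dashed line, and no member in microglia-like cells does.

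Between the hippocampal and the cortical preparation, compared by whole classes, the inducible HSP70 genes were the only members past 2-fold, each in 1 class. Other members also differed, below 2-fold, such as Dnajb1 (ratio 0.659 in microglia-like cells) and Hspb1 (1.60 in endothelial-like cells). The 3 classes found in both could be compared, and 21 of the 24 combinations of member and class had at least 300 UMIs in either preparation. With 5 CPM added, 1 of the 21 was at least 2 times higher in prep 3 and 1 at least 2 times lower. Of all genes tested in astrocyte-like cells, 1.45% were at least 2 times higher and 1.72% at least 2 times lower. The shares were 1.6% higher and 1.1% lower in the endothelial-like class and 0.645% higher and 0.996% lower in the microglia-like class. With 1 pool of mice for each preparation there is no test of the difference. The count tables of the preparations were also made with different gene lists, of 31053 genes in prep 1 and 27998 in prep 3, and the file headers give different software versions. The part of this in a ratio was not tested.

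Hspa1a in endothelial-like cells rose from 76.98, 54.7 and 92.9 CPM in prep 1 to 274, 229.7 and 229.9 CPM in prep 3, a ratio of means of 3.12 with 5 CPM added and a pooled plain ratio of 3.27 (3.08 to 3.47). Every library of prep 3 was above every library of prep 1. Hspa1b in the same cells was 49.96 ± 15.1 CPM and 91.6 ± 7.34 CPM (SD, n = 3), a ratio of 1.76 (log2 1.02, past 2-fold, without cortex replicate 3). Hspb1 was higher as well, at 737 ± 32.4 and 1183 ± 28.0 CPM, a ratio of 1.60, again with no overlap. Hspa8 lay the other way, at 1414 ± 60.2 and 1039 ± 4.55 CPM, a ratio of 0.736. Dnajb1 had a ratio of 0.969, Hsph1 of 0.993 and Hsp90aa1 of 1.09, each with overlapping libraries. Part of the endothelial-like class differed in makeup between preparations, because a cluster led by Gkn3, a gene of arterial endothelium, was in the class in prep 3 and unnamed in prep 1. Set side by side, the clusters led by Slc38a5, with 2320 and 1356 cells, had Hspa1a levels of 81.9, 58.5 and 98.3 CPM in prep 1 and 173, 194 and 183 CPM in prep 3, a ratio of 2.23. Those led by Gkn3, with 242 and 542 cells, had 111, 197 and 129.8 CPM and 513, 313 and 331 CPM, a ratio of 2.59. Hspa1a was thus higher in prep 3 in both kinds of cluster, and higher in the Gkn3-led cluster than in the Slc38a5-led cluster of the same preparation. For Hspb1 the ratios were 1.41 and 1.93. For Hspa1b they were 1.49 in the Slc38a5-led clusters and 1.42 in the Gkn3-led clusters, the latter with overlapping libraries.

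In microglia-like cells 5 members were lower in every library of prep 3 than in every library of prep 1 and none was higher, where 16.4% of all genes tested were lower and 40.5% higher by the same rule. Hspa1b fell past the 2-fold call, from 213 ± 13.4 to 100.4 ± 7.65 CPM, which was 2.07-fold lower, or a log2 ratio of -1.05 that became -0.99, short of 2-fold, without hippocampus replicate 3. Hspa1a was 227 ± 17.6 CPM in prep 1 and 157 ± 7.18 CPM in prep 3, a ratio of 0.696 and a pooled plain ratio of 0.690 (0.667 to 0.713). Dnajb1 was 81.0 ± 2.82 and 51.7 ± 2.49 CPM (ratio 0.659), Hspa8 1245 ± 67.4 and 872 ± 24.3 CPM (ratio 0.701) and Hspe1 256 ± 6.13 and 213 ± 5.39 CPM (ratio 0.834). These 4 did not reach the 2-fold call. Hsp90aa1 was 263 ± 1.55 and 265 ± 5.17 CPM, with overlapping libraries. Hsph1 and Hspb1 also overlapped. The class differed in makeup, as a Ccl4-led cluster held 940 of 6150 cells in prep 1 and 2684 of 5810 in prep 3. Between these clusters Hspa1a overlapped, at 136, 159.9 and 178 CPM and at 142, 157 and 129.5 CPM. Hspa1b, Dnajb1, Hspa8 and Hspe1 were lower in prep 3 there without overlap, Dnajb1 at means of 155 and 58.6 CPM. The part of makeup in the class values was not tested.

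In astrocyte-like cells Hspa1a and Hspa1b had too few UMIs for the comparison, with mean levels of 10.3 and 15.0 CPM and of 10.2 and 7.84 CPM. Hspa8 was 1047 ± 74.0 CPM in prep 1 and 631 ± 27.9 CPM in prep 3 (ratio 0.604), Dnajb1 18.5 ± 2.91 and 10.4 ± 0.666 CPM (ratio 0.653) and Hspe1 316 ± 9.78 and 249.7 ± 18.2 CPM (ratio 0.793). Hsp90aa1 was 159.6 ± 3.56 and 208 ± 6.65 CPM (ratio 1.29). By the rule of no overlap, 3 members were lower and 1 higher in astrocyte-like cells, beside 30% and 33.5% of all genes, and 2 were lower and 3 higher in endothelial-like cells, beside 17.7% and 41%. Hspa8 was lower in prep 3 in all 3 classes without overlap. The median ratio of all genes was 1.01, 1.07 and 1.06 in astrocyte-like, endothelial-like and microglia-like cells.

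**Figure D3:**
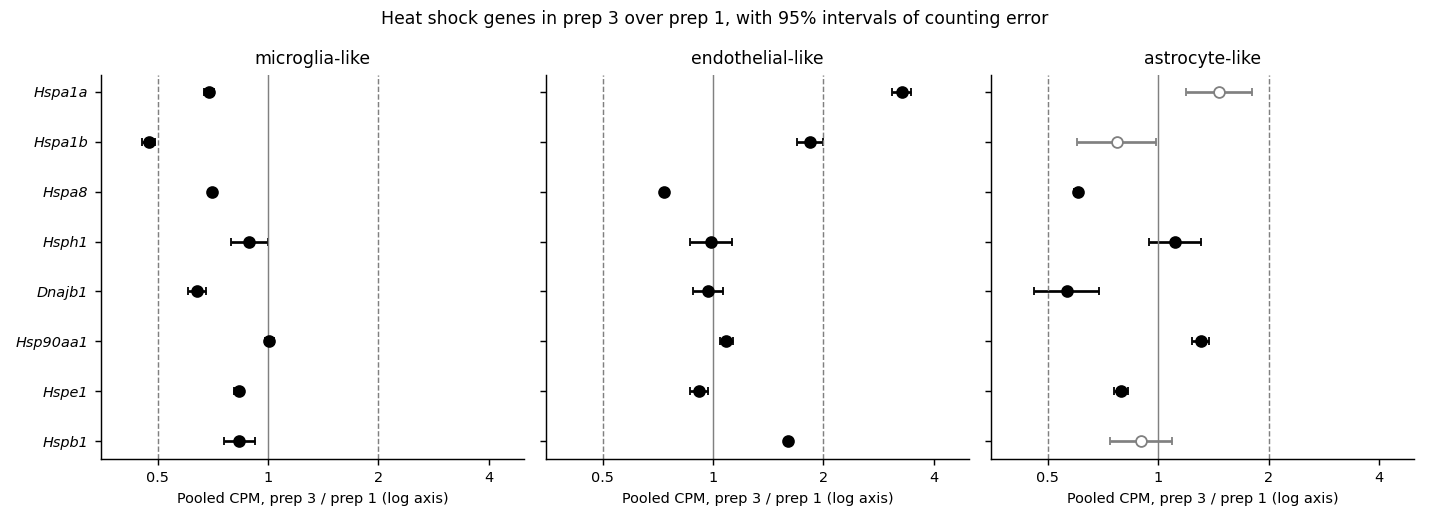
Ratio of the pooled CPM of prep 3 to that of prep 1 for each member in the 3 classes found in both, on a log axis, with 95% counting intervals. Open grey points have under 300 UMIs. Hspa1a lies at 3.27 in endothelial-like cells and at 0.690 in microglia-like cells, and Hspa8 lies below 1 in all 3 classes.

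In microglia-like and endothelial-like cells the ratio of Hspa1a to Hspa1b UMIs within a library was steadier between replicates than either level, and it differed between preparations. In microglia-like cells it was 1.002, 1.117 and 1.081 in prep 1 and 1.52, 1.55 and 1.62 in prep 3. In endothelial-like cells it was 1.51, 1.59 and 1.44 in prep 1 and 2.73, 2.63 and 2.63 in prep 3. The ratio was higher in prep 3 in every library of both classes, and higher in endothelial-like than in microglia-like cells in every library of both preparations. The endothelial-like class held the Gkn3-led cluster only in prep 3, with 1802 UMIs of Hspa1a and 533 of Hspa1b. The Slc38a5-led cluster held 1969 and 880 UMIs in prep 3 and 1535 and 1025 in prep 1. Pericyte-like cells of prep 3, at 2.61, 2.64 and 2.89, were close to endothelial-like cells of the same preparation. In oligodendrocyte-like cells of prep 3 it was 1.51, 2.097 and 1.39, highest in the library where Hspa1a was highest. The promoters shown above carry the same pair of heat shock units at the same distance from the start in both genes. The parts that the differing gene lists and the makeup of the endothelial-like and microglia-like classes have in the shift between preparations were not tested.

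Within microglia-like cells of prep 1 the inducible HSP70 genes and Dnajb1 were high in different clusters. In prep 3 Hspa1b and Dnajb1 also differed in opposite directions between the clusters led by P2ry13 and Ccl4, without overlap. Hspa1a overlapped between those clusters of prep 3. The clustering left out all chaperone and stress genes as variable genes. In prep 1 the small cluster led by the interferon-response genes Ifi204 and Ifit3, with 141 cells, had the most Hspa1a, at 402, 544 and 400.4 CPM. The cluster led by the chemokine genes Ccl4 and Ccl3, with 940 cells, had the least, at 136, 159.9 and 178 CPM, though it overlapped a cluster led by Lag3 at 151, 177 and 225 CPM. The clusters led by P2ry12 and Susd3 lay between, at 241, 227 and 255 CPM and at 259, 270.1 and 283 CPM. Dnajb1 was instead highest in the Ccl4-led cluster, at 151, 141 and 172 CPM, and was 56.4 to 79.9 CPM in every library of the other 4. Among those 4, the interferon-led cluster overlapped each of the others in Dnajb1. The same Ccl4-led cells had 2339, 2568 and 2479.8 CPM of the immediate early gene Fos and 1438, 1515 and 1689.7 CPM of Hspa8, above the libraries of the P2ry12-led, Susd3-led and Lag3-led clusters for both genes.

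In prep 3 the interferon-led cluster, with 171 cells, was again highest in Hspa1a, at 369.7, 243 and 185 CPM, against 173, 154 and 165 CPM in the cluster led by P2ry13 and 142, 157 and 129.5 CPM in the Ccl4-led cluster. Dnajb1 was 53.4, 62.6 and 59.6 CPM in the Ccl4-led cluster and 42.8, 43.3 and 47.5 CPM in the P2ry13-led cluster, a smaller difference than in prep 1 but without overlap. The interferon-led cluster had 67.5, 35.8 and 48.8 CPM of Dnajb1 and overlapped both. Hspa1b followed Hspa1a in the interferon-led clusters, at 528, 415 and 460.2 CPM in prep 1 and 232, 248 and 134 CPM in prep 3. The P2ry13-led cluster of prep 3 had 123, 118 and 108 CPM of Hspa1b. The Ccl4-led cluster had 84.9, 79.0 and 73.0 CPM, and none of these ranges overlapped. In endothelial-like cells of prep 1, the small cluster led by Adm and Apln, with 126 cells, had 32.7, 22.7 and 32.9 CPM of Hspa1a, below all libraries of the Slc38a5-led cluster.

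**Figure D4:**
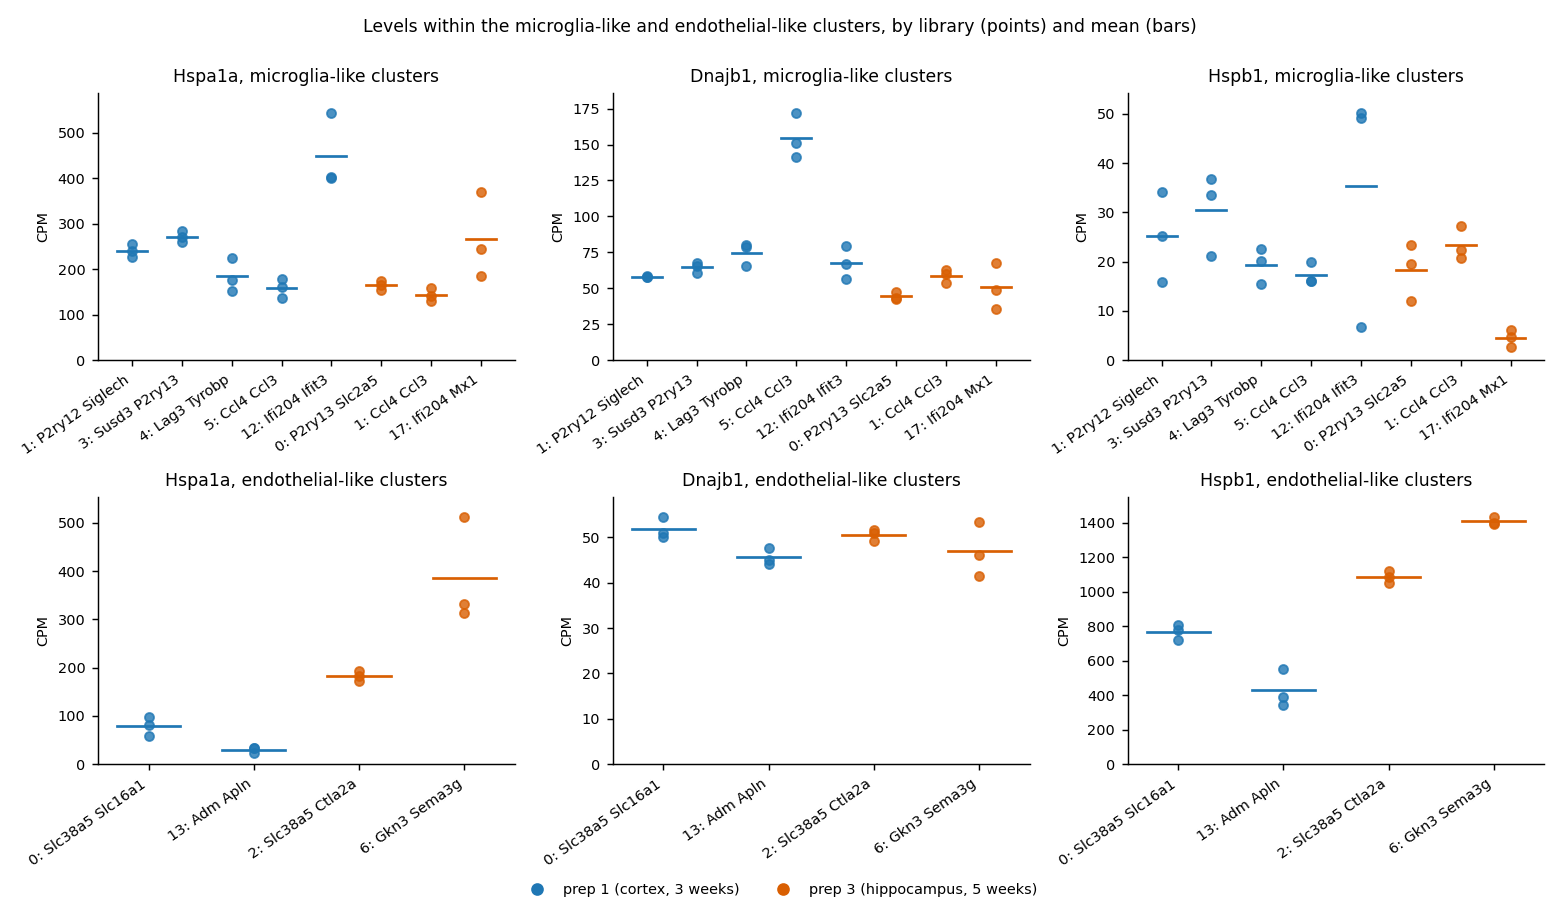
Levels of Hspa1a, Dnajb1 and Hspb1, in CPM, in each cluster of the microglia-like and endothelial-like classes of prep 1 and prep 3, named by its leading genes. Points are libraries and bars their means. Hspa1a is highest in the interferon-led microglia-like clusters, while Dnajb1 is highest in the Ccl4-led microglia-like cluster of prep 1.

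Most cells of every class held no UMI of Hspa1a once depth was made equal. After each cell was thinned to 1000 UMIs, 13.04% of microglia-like cells of prep 1 (12.2 to 13.9%) and 8.90% of prep 3 (8.18 to 9.67%) had a UMI of Hspa1a. Before thinning the shares were 24.5% and 18.7%. In astrocyte-like cells, the thinned share was 0.627% and 0.973%. The 3 technical replicates gave 12.4, 12.6 and 14.2% in microglia-like cells of prep 1 and 8.75, 9.45 and 8.48% in prep 3. In endothelial-like cells the share with a UMI was 5.32% (4.46 to 6.28%) in prep 1 and 14.3% (12.7 to 15.9%) in prep 3, where the class also holds the Gkn3-led cluster. At a fixed depth this share follows the level. In pericyte-like cells of prep 3 it was 19.8%. Thinning left out 71 and 4 microglia-like and 1 and 0 endothelial-like cells of the 2 preparations, and 157 and 129 astrocyte-like cells.

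For Hspb1 and Hsp90aa1 too, the share of cells with a UMI was larger in the classes where the level was high. A thinned UMI of Hspb1 was found in 46.5% of endothelial-like cells in prep 1 and 63.3% in prep 3, and in 1.66% and 1.53% of microglia-like cells. A UMI of Hsp90aa1 was found in 81.0% of oligodendrocyte-like and 60.4% of neuron-like cells of prep 3, and in 22.0% and 22.3% of microglia-like cells of prep 1 and prep 3. In microglia-like cells the variance of Hspa1a over its mean per thinned cell was 2.31, 2.49 and 2.34 in prep 1 and 2.68, 2.78 and 2.78 in prep 3. Among the 3071 to 3287 genes with at least 100 thinned UMIs in the library, the median was 1.02, and Hspa1a lay above 99.3% to 99.7% of them. Fos lay above 99.6% to 99.8% and Atf3 above 99.1% to 99.5%, so the uneven spread over cells was not particular to Hspa1a.

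**Figure D5:**
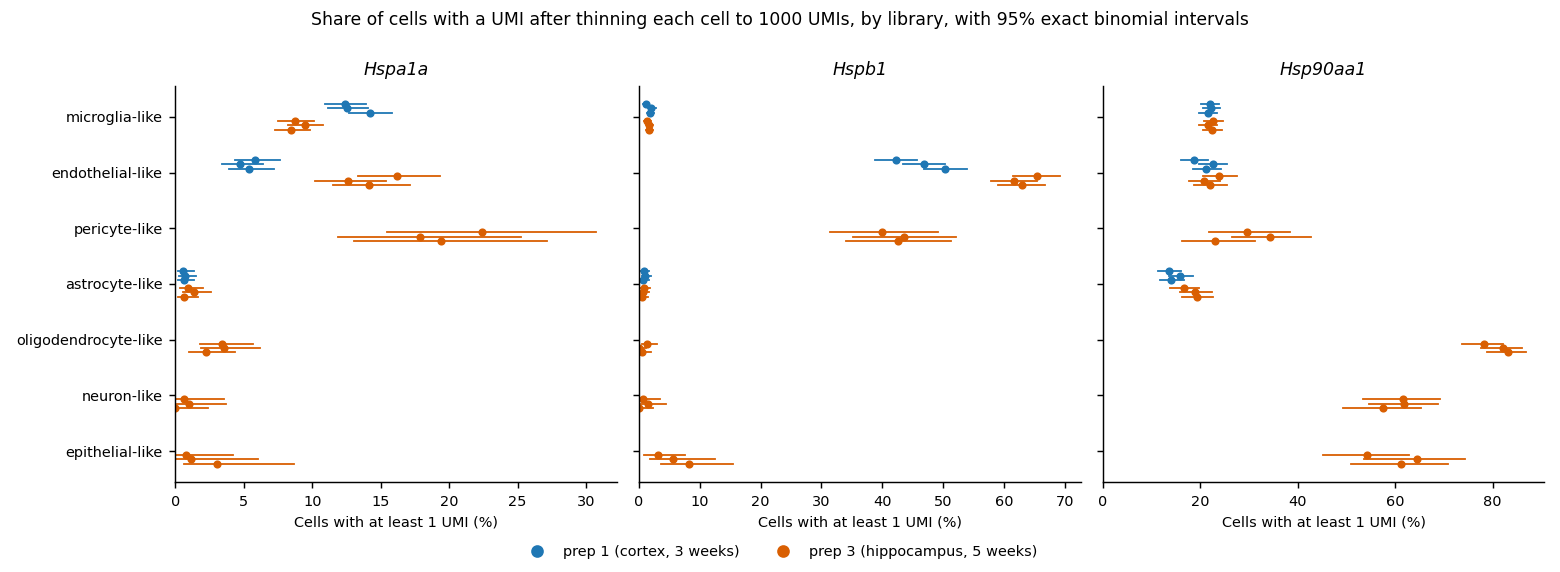
Share of cells with at least 1 UMI of Hspa1a, Hspb1 or Hsp90aa1 after thinning each cell to 1000 UMIs, in percent, by class, for prep 1 and prep 3. Points are libraries. Hspa1a was found in 13.04% of microglia-like cells of prep 1 and 8.90% of prep 3, and in 5.32% and 14.3% of endothelial-like cells.

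Cells that held Hspa1a tended to hold Hspa1b. Over the cells of a library with at least 1000 UMIs, on log values per 10000 UMIs and without thinning, Pearson's r between them was 0.377 to 0.420 in microglia-like cells of prep 1, 0.471 to 0.481 in prep 3, 0.459 to 0.521 in endothelial-like cells of prep 1 and 0.4999 to 0.584 in prep 3. These are descriptions over cells that share a library and a depth. Hspa1a and Hspb1 had an r of 0.206 to 0.237 and of 0.198 to 0.272 in endothelial-like cells. Hspa1a and Fos had an r of 0.214 to 0.375 in endothelial-like and 0.317 to 0.360 in pericyte-like cells of prep 3, but of -0.00408 to 0.0414 in microglia-like cells of prep 3, where Fos was high. Clusters of a class were pooled for these values. Among endothelial-like cells of prep 3, the Gkn3-led cluster was above the Slc38a5-led cluster in mean Hspa1a (386 against 183 CPM) and Fos (292 against 85.0 CPM). The part of this in r was not tested. Over the 30 sums of library and class with at least 100 cells per library, the 5 genes most like Hspa1a in level among 12882 genes were Hspa1b (r = 0.956), Tln1 (0.928), Fez2 (0.921), Relb (0.919) and Zbtb7a (0.917). Among the other members, Dnajb1 had an r of 0.738, Hspb1 of 0.579, Hsph1 of -0.435 and Hspe1 of -0.745. When the mean of each class in each preparation was taken away, so that replicate differences were left, Stn1 (0.749), Fam89a (0.719), Cnep1r1 (0.695), Slc8b1 (0.693) and Rpa3 (0.690) were most like it, and Hspa1b had an r of 0.463 and the rank of 260. The points share libraries and cell types, and these values are descriptions.

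In the wider chaperone and stress lists, with 118 genes, replicate differences were mostly in immediate early genes. In prep 1 no gene outside the 8 members reached a ratio of 1.5 in the lists of J domain proteins, HSP90 and its cochaperones, HSP70 cochaperones, HSP60 and CCT, small heat shock proteins, HSF and regulators, endoplasmic reticulum chaperones or oxidative stress. In the immediate early genes, 3 of 11 measured in astrocyte-like cells did, beside 1.45% of all genes, and Junb was highest in replicate 3, at 27.4, 31.2 and 54.5 CPM. In prep 3 immediate early genes reached it in oligodendrocyte-like cells, with 4 of 9 measured beside 0.828% of all genes. Egr1 was 18.1, 9.81 and 22.6 CPM there and thus lowest in replicate 2, where Hspa1a was highest. Of the immediate early genes, 1 of 10 in astrocyte-like, 1 of 7 in neuron-like and 1 of 5 in pericyte-like cells also reached it, beside 0.426%, 1.98% and 2.35% of all genes. So did Cct3 and Cct4, subunits of the cytosolic chaperonin, as 2 of 9 genes of their list in epithelial-like cells, where 11.8% of all genes did and 67.5% of the cells have a barcode found in more than 1 library. The metallothionein Mt1, the 1 gene of its list measured in pericyte-like cells, reached it as well.

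Between preparations, no gene of these lists outside the members was 2 times higher or lower except Fos, Nr4a1 and Fkbp5. Fos rose from 44.0, 37.3 and 53.4 CPM to 133, 148 and 163 CPM in endothelial-like cells, a ratio of 3.06, and Nr4a1 rose from 16.2 ± 1.87 to 40.3 ± 7.32 CPM, a ratio of 2.14. They were 2 of 16 immediate early genes measured there, and the list's median was 0.39 on the log2 scale beside 0.10 over all genes. Egr1 was 36.6 and 75.002 CPM (ratio 1.92), Mt1 548 and 940.1 CPM (1.71) and Mt2 110.3 and 212 CPM (1.89) in endothelial-like cells. The class held the Gkn3-led cluster only in prep 3, and Fos was 319, 234 and 321 CPM in it. Between the Slc38a5-led clusters Fos was 37.5, 39.1 and 55.5 CPM in prep 1 and 54.7, 110.5 and 89.8 CPM in prep 3. Those libraries overlapped, as did those of Egr1 at means of 32.0 and 48.1 CPM. Nr4a1, Mt1 and Mt2 were not compared by cluster. Fkbp5, an HSP90 cochaperone induced by glucocorticoids, fell from 83.5, 79.3 and 74.8 CPM to 35.5, 35.5 and 33.2 CPM in microglia-like cells and was 2.12-fold lower, as 1 of 13 genes of the HSP90 list. In microglia-like cells the median of the members was -0.39 beside 0.08 over all genes. The medians of the other lists ran from -0.149 for HSF and regulators to 0.16 for 13 J domain proteins. The median was 0.14 for 18 endoplasmic reticulum chaperones and -0.004 for the HSP70 and HSP110 family, which includes members. It was -0.028 for HSP90 and its cochaperones and -0.083 for HSP60, HSP10 and CCT. Atf3 was 121 and 85.1 CPM (ratio 0.717), Ddit3 54.5 and 47.0 CPM (0.874), Hmox1 37.9 and 33.1 CPM (0.887) and Hspa5, the HSP70 of the endoplasmic reticulum, 743 and 841 CPM (1.13). Hsf1 itself was 25.1, 20.9 and 23.2 CPM in microglia-like cells of prep 1 and 18.4, 17.1 and 16.9 CPM in prep 3, a ratio of 0.801. In endothelial-like cells, where Hspa1a differed most, Hsf1 was 25.2, 26.7 and 25.7 CPM and 24.6, 22.9 and 25.9 CPM, with overlapping libraries.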

How the data were processed

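The authors deposited raw UMI counts (gene by barcode) for each library, made with Cell Ranger 5.0.1 on mm10 per the labels, while the file headers give 3.0.1 (prep 1) and 3.1.0 (prep 3). Cells were kept with the limits the study used for all cell types: at least 250 and at most 6000 genes, and mitochondrial UMIs below 25%. The study set a lower mitochondrial limit when it analysed vascular cells, which was not used here. Each preparation was integrated over its libraries (CCA) and clustered on its own with Seurat 5.3.0 in R 4.3.3 (2000 variable genes, 30 dimensions, resolution 0.5), leaving 118 chaperone and stress genes out of the variable genes, and clusters were named from markers of 17 cell types. Doublets called by Scrublet (scanpy 1.11.5) were kept. UMIs were summed per library and class, and 5 CPM were added before ratios. Genes under 300 UMIs in a class were not called. The 6 libraries are technical replicates of 2 pools, so no test was run. Intervals are exact (Poisson or binomial). The scripts were tested on simulated data. Alternatives were size factors, denominators, doublets, thinning, limits, own-marker classes and leaving out replicates. Members and lists were chosen with earlier results of these data known. Other genes named were those of largest and smallest ratio in a list, 8 stress genes listed by name, the 10 of highest replicate ratio in microglia-like cells (1 gene is not reported here) and the 5 most like Hspa1a. Gene positions come from GENCODE on GRCm38 and promoter sequences from RefSeq. Prep 2 was not analysed here.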

Additional observations from a re-analysis of the deposited data

Results flagged for a closer look

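Hspa1a differed in direction between classes under the same contrast. In endothelial-like cells every library of prep 3 was above every library of prep 1 (log2 ratio 1.64), and in microglia-like cells every library was below (log2 ratio -0.52), a gap of 2.17 on the log2 scale. Hspa1b did the same, with log2 ratios of 0.81 and -1.05 and a gap of 1.86. The endothelial-like class held the Gkn3-led cluster only in prep 3. Between clusters led by the same gene, the log2 ratio of Hspa1a was 1.15 for Slc38a5 and 1.37 for Gkn3, both without overlap. The ratio of Hspa1b was 1.49 (log2 0.58) for Slc38a5 and 1.42 for Gkn3, the latter with overlapping libraries. Among microglia-like cells, Hspa1a overlapped between the Ccl4-led clusters of the preparations, which held 940 cells in prep 1 and 2684 in prep 3. With 1 pool of mice in each preparation, the difference between the classes was not tested. The 2 genes share libraries and cells, so the second is not separate evidence.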

How the results depend on the processing

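No paired analysis was possible because the results come from no test: replicates are technical runs of 1 pool for each preparation, and equal numbers in the preparations name unrelated libraries. Of 176 alternative values for the main results, 131 stayed within the spread between replicates or, for counts, within 1.5 times, and 45 moved. The difference between microglia-like and astrocyte-like cells in Hspa1a (log2 3.92 in prep 1 and 3.02 in prep 3) was 4.67 and 4.05 without called doublets, 3.41 and 2.69 with a mitochondrial limit of 10%, 4.31 and 3.61 with classes from each cell's own markers, and 4.54 and 4.28 without cells holding markers of another kind. The endothelial-like over microglia-like difference in Hspb1 (log2 4.67 and 5.55) was 4.35 and 5.21 with own-marker classes and, in prep 3, 5.36 with size factors. The number of member and class combinations past 1.5 in prep 1 (2) was 0 with own-marker classes, 4 with thinned cells, 0 without cells holding markers of another kind, and 0 to 2 on leaving out a replicate. In prep 3 (2) it was 1 without doublets, 1 at the 10% limit, 1 at 1000 UMIs, 7 at 30 UMIs and 0 to 1 on leaving out a replicate. For other listed genes in prep 1 (3) it was 0 without doublets, 5 with 1 CPM added, 0 at 1000 UMIs, 5 at 30 UMIs, 1 without cells holding markers of another kind and 1 to 2 on leaving out a replicate. In prep 3 (10) it was 6 without doublets, 0 at 1000 UMIs, 59 at 30 UMIs, 5 without cells holding markers of another kind and 2 to 3 on leaving out a replicate. The members past 2-fold in prep 3 were 1 to 2 higher (main 1) and 0 to 1 lower (main 1) on leaving out a replicate. With all UMIs of a cell, the share with Hspa1a was 24.5% and 18.7% in microglia-like cells of prep 1 and prep 3 and 18.0% and 35.5% in endothelial-like cells, and without cells holding markers of another kind it was 4.75% in endothelial-like cells of prep 1 and 9.43% in microglia-like cells of prep 3. A log2 ratio changed sign for Hsph1 in astrocyte-like cells (prep 3 over prep 1, -0.053 at the 10% limit), for Hspe1 in endothelial-like cells (0.021 without cells holding markers of another kind and 0.039 in the Gkn3-led clusters alone) and for Hsp90aa1 (astrocyte-like over microglia-like, prep 3, 0.036 with own-marker classes). Fewer cells or genes enter under most of these settings, and the cause was otherwise not tested. Markers of another kind meant microglial and macrophage markers for vascular classes, and endothelial and pericyte markers for myeloid classes. For other classes all of these were used. The choices on cells holding other markers and on single endothelial clusters were made after seeing the data. Precision is limited by 1 pool for each preparation and, for classes under 100 cells in a library, by cell number.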

Other observations

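Barcodes with under 250 genes, which no comparison used, had low CPM of all 8 members. The low level was thus not particular to the inducible HSP70 genes. Which other genes made up the UMIs of these barcodes was not examined. In the 3864 such barcodes of prep 1, Hspa1a was 0.178 to 0.916 CPM and Hspa8 was 6.71 to 7.99 CPM. In the 355 of prep 3, Hspa1a was 2.29 to 5.38 CPM with 4 UMIs in all.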
